A study of Mus musculus with 10 samples.

Results

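The collagen genes are all genes of the deposited table whose symbol is Col, a number, the letter a and a second number, which gave 44 of 27267 listed genes. They were grouped by textbook class into 11 fibrillar collagens, 8 basement-membrane collagens and 25 others. The table holds RNA-seq of interscapular brown adipose tissue (iBAT) from 5 wild-type and 5 *Mgp*-KO mice, labelled as C57BL/6 males of 4 weeks. The paper states that all its mice were fed standard chow. The knockout is global, so *Mgp*, which encodes the bone morphogenetic protein inhibitor matrix Gla protein, was targeted in every cell type of the mouse. Each value is a normalized count, the reads on a gene divided by the size factor of its library.

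Collagens are secreted proteins built of 3 alpha chains, each from its own gene or from several copies of the same gene, wound into a triple helix. Fibrillar collagens form the fibres that carry tension between cells, with type I and type III as the main chains and type V starting and limiting the fibre. Type IV collagen is the net of the basement membrane, the sheet that surrounds each adipocyte and underlies the endothelium, and types XV and XVIII sit in or beside that sheet. Type VI collagen forms beaded filaments around cells and is known as an abundant matrix component of adipose tissue. Fibroblasts and progenitor cells make most fibrillar collagen, whereas adipocytes, endothelial cells and mural cells make much of type IV.

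Some libraries stood apart from the rest or against their labels. *Mgp* had normalized counts of 466 to 1146 in wild type. It had 500 and 331 in the *Mgp*-KO-labelled libraries 4 and 5 and at most 0.821 in those labelled 1 to 3, so they are called *Mgp*-KO-labelled libraries, and genotype below means the labelled genotype. The library labelled wild type 2 held reads of the female transcript *Xist* (normalized count 5094) against its male label, and at most 2.25 normalized counts of each of 4 Y-linked genes, where every other library had at least 179. Replicates 1 to 3 held 19616366 to 22252260 reads on genes and replicates 4 and 5 held 9253793 to 13281873, and mitochondrial ribosomal RNA took 0.771% to 1.72% of the reads in the first set and 6.50% to 16.7% in the second. Skeletal muscle transcripts differed widely between libraries, as given below beside the collagens. Each comparison is therefore made on all 10 libraries together, then with the replicate set as a covariate, and then inside each set.

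Collagen genes took between 0.160% and 0.687% of the reads of a library. Compared per kilobase of exon, the collagen with the highest level in wild-type iBAT was *Col3a1*, the type III chain, at 2652 ± 1282 normalized counts per kilobase (SD, n = 5). It was followed by *Col4a1* at 2059 ± 406, *Col1a1* at 1485 ± 894, *Col4a2* at 1463 ± 421 and *Col1a2* at 1231 ± 579 (SD, n = 5 each). The ranges of these 5 genes overlapped between mice, from 591 to 4672 per kilobase. Within each of the 10 libraries *Col3a1* stood above *Col1a1*, at 1.06 to 2.34 times its level per length, and *Col4a1* above *Col4a2*. A step below stood the type VI chains *Col6a1* (436 ± 182 per kilobase), *Col6a2* (327 ± 166) and *Col6a3* (194 ± 71.4), with *Col15a1* of type XV at 240 ± 95.3 and the type V chains *Col5a3*, *Col5a2* and *Col5a1* at 190, 180 and 176 (n = 5 each). *Col27a1*, a fibrillar collagen best known from cartilage, had 93.4 ± 10.2 per kilobase, the smallest spread for its level among the fibrillar genes.

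**Figure D1:**
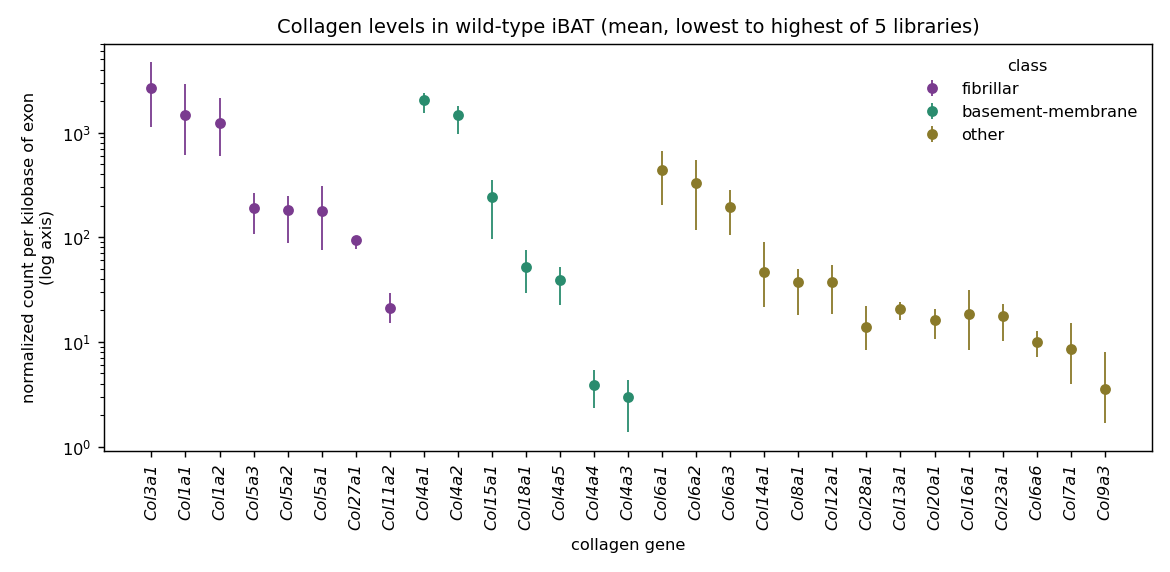
Level of the 29 collagen genes that entered the tests, in normalized counts per kilobase of exon on a log axis, as the mean of the 5 wild-type libraries with a line from the lowest to the highest library. *Col3a1*, *Col1a1*, *Col1a2*, *Col4a1* and *Col4a2* stand above 1000 per kilobase, and every other gene has a mean of at most 436.

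Of the 44 genes, 29 had a mean of at least 10 normalized counts over the 10 libraries and entered the tests, namely 8 of 11 fibrillar, 7 of 8 basement-membrane and 14 of 25 other collagens. The 15 that did not had means between 0.0765 and 9.26 and between 1 and 102 reads over all 10 libraries together. They include the cartilage chains *Col2a1*, *Col9a1*, *Col9a2*, *Col10a1* and *Col11a1*, the hemidesmosome collagen *Col17a1*, and *Col4a6*. *Col2a1* was covered by 6 reads in all and *Col9a1* by 1. In any library a gene with 0 reads could still have up to 3 reads by counting error, which is 2.15 to 5.19 normalized counts. Most of these genes lay near that floor, and some stood above it in single libraries, such as *Col6a5* with 31 reads in wild type 1.

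The 250 bases before the RefSeq start of 4 genes are shown as examples, from the GRCm38.p6 build. Within replicates 1 to 3 the *Mgp*-KO-labelled libraries lay under wild type without overlap in *Col3a1*, *Col5a1* and *Col15a1*, and above it in *Col28a1*. Only *Col5a1* and *Col28a1* passed there, in DESeq2 and not in limma. Capitals mark matches on either strand to the letters of 3 promoter motifs. The TATA box was searched as TATAAA, the GC box was searched as GGGCGG and the CCAAT box by its own 5 letters, and the motifs do not overlap each other here.
Col3a1 (chr1:45311288-45311537, forward strand): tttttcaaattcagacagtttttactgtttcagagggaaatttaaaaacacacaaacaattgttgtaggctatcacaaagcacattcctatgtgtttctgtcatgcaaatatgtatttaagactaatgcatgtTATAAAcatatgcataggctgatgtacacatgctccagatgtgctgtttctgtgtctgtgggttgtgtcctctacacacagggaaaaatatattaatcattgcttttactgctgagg
Col5a1 (chr2:27886175-27886424, forward strand): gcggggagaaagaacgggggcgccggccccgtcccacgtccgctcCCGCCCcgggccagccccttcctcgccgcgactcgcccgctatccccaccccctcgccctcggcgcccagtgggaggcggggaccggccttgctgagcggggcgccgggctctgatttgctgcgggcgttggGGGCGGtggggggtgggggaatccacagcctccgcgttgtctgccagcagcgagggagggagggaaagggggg
Col15a1 (chr4:47207762-47208011, forward strand): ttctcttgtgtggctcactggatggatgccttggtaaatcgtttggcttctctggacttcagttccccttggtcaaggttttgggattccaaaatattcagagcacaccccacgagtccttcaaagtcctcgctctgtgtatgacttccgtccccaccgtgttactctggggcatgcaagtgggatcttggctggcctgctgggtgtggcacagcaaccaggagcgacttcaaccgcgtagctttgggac
Col28a1 (chr6:8192618-8192867, reverse strand): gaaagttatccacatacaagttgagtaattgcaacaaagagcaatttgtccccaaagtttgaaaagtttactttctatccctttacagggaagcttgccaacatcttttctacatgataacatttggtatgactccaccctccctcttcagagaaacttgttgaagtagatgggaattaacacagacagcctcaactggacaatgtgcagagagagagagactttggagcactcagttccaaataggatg

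Within this window *Col3a1* holds a TATA box that begins 117 bases before the start, and *Col5a1* holds a GC box 73 bases before the start on the forward strand and another 205 bases before it on the reverse strand. None of these motifs was matched in the windows of *Col15a1* and *Col28a1*. Over the 32851 RefSeq windows of the same length 33.8% hold the CCAAT box, 12.4% hold the TATA box and 32.7% hold the GC box, and of the 35 collagen genes with a window 13, 5 and 21 hold them. The starts of *Col4a1* and *Col4a2*, the paired type IV genes, lie head to head on chromosome 8, where their GENCODE annotations overlap by 22 bases on opposite strands.

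The first question was whether collagen transcripts differ between wild-type iBAT and the *Mgp*-KO-labelled libraries. Over all 10 libraries 23 of the 29 tested genes had a negative log2 difference, with a median of -0.25 against 0.026 over all 13714 tested genes, but 0 of 29 passed an adjusted p of 0.05 in limma, where 0.0656% of all tested genes passed. Without adjustment 7 of the 29 had a p under 0.05, 5 lower and 2 higher, against 10.4% of all tested genes. With a term for the replicate set 0 of 29 passed in limma (2.36% of all) and 8 had an unadjusted p under 0.05 (19.3% of all). On the whole reads edgeR called 0 of 29, against 0.0219% of all genes, and 7 had an unadjusted p under 0.05, against 11.4%. Of 36 collagens that it tested DESeq2 called *Col28a1* alone, against 2.49% of all genes. DESeq2 with the set term called 3, *Col6a2* lower and *Col27a1* and *Col28a1* higher, against 7.07% of all genes, and the call of *Col27a1* was lost when any of wild type 1 to 5 or labelled *Mgp*-KO 2, 3 or 4 was left out.

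**Figure D2:**
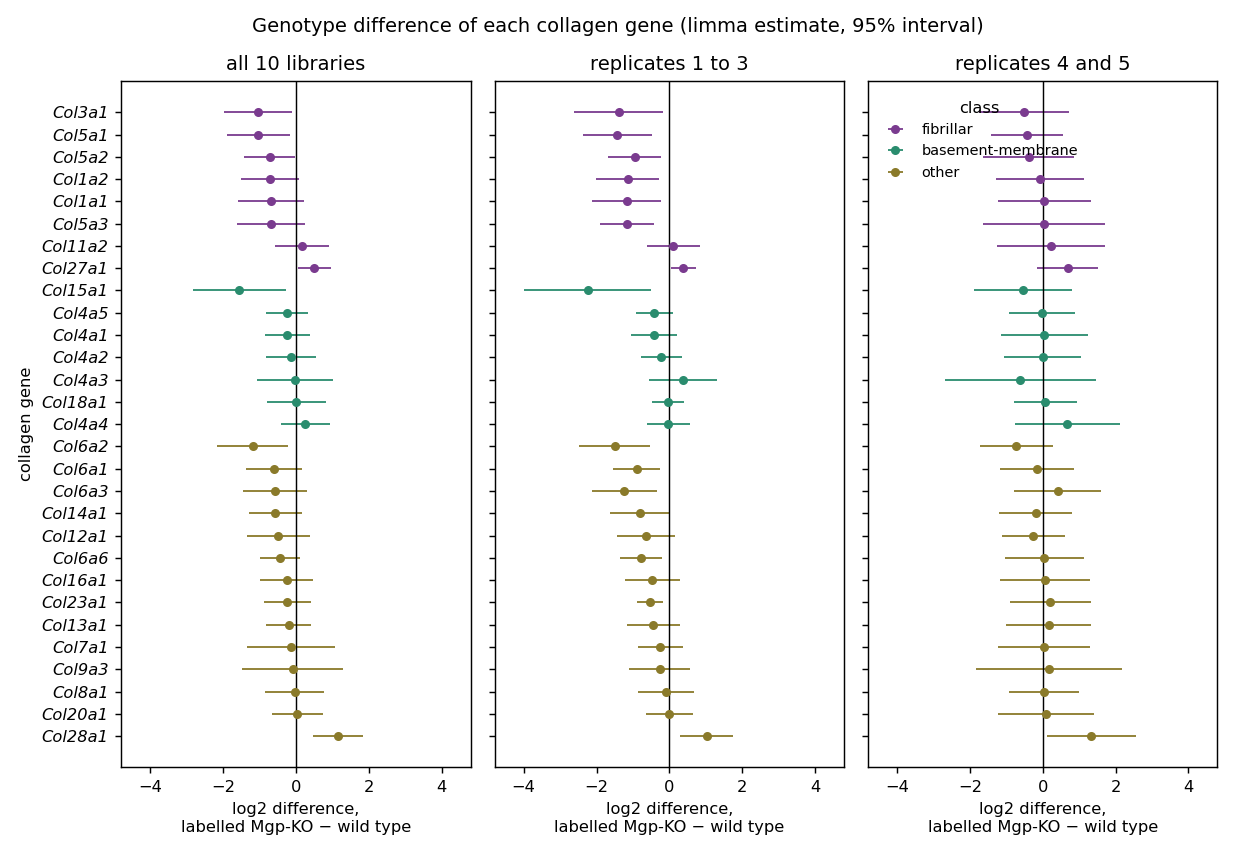
Log2 difference between the *Mgp*-KO-labelled libraries and wild type for each of 29 collagen genes, over all 10 libraries, within replicates 1 to 3 and within replicates 4 and 5. Points are limma estimates on log2(normalized count + 1), lines are 95% intervals and colours are classes. Within replicates 1 to 3, 24 of 29 points lie under 0, and within replicates 4 and 5, 12 of 29.

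No collagen gene parted all 5 wild-type libraries from all 5 labelled *Mgp*-KO (0 of 29, against 3.5% of all tested genes). Within replicates 1 to 3 the picture was different. There all 3 labelled *Mgp*-KO libraries lay under all 3 wild-type libraries in 14 of 29 genes, where 15.1% of all tested genes did so, and above them in 2 genes, where 15.5% did. The 14 genes were *Col1a1*, *Col1a2*, *Col3a1*, *Col5a1*, *Col5a2* and *Col5a3* of the fibrillar class, *Col15a1* of the basement-membrane class, and *Col6a1*, *Col6a2*, *Col6a3*, *Col6a6*, *Col9a3*, *Col12a1* and *Col23a1*. The 2 genes that lay above were *Col27a1* and *Col28a1*. In limma 0 of 29 passed within replicates 1 to 3 (3.54% of all) and 14 had an unadjusted p under 0.05 (22% of all). DESeq2 on the whole reads of the same 6 libraries called 8 genes lower, against 4.6% of all genes, and 1 higher, against 5.02%. The 8 genes were *Col1a1*, *Col1a2*, *Col5a1*, *Col5a2*, *Col5a3*, *Col6a1*, *Col6a2* and *Col6a3*, and the gene that rose was *Col28a1*. Without wild type 3 DESeq2 called 0 collagens. The estimates of the 8 genes were then between -1.16 for *Col6a2* and -0.70 for *Col5a2*, against -1.37 and -0.89 with it, and that of *Col1a1* went from -1.21 to -0.76. Without any other of the 6 libraries it called between 3 and 8.

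Among the fibrillar collagens, *Col3a1* had normalized counts of 14923, 12721 and 25997 in wild type 1 to 3, then 6266 and 13861 in 4 and 5. It had 11520, 2769 and 8543 in the *Mgp*-KO-labelled libraries 1 to 3 and 7768 and 5561 in those labelled 4 and 5. Wild type 3 was the highest and labelled *Mgp*-KO 2 the lowest, the 3 against 3 of the first set did not overlap, and wild type 4 lay among the *Mgp*-KO-labelled libraries. The log2 difference was -1.04 (SE 0.43, adjusted p = 0.421 in limma). It was -1.39 inside the first set and -0.50 inside the second. The gene lies on chromosome 1 from 45311538 to 45349706 (GRCm38) and shares 141 bases of exon with *Gm47302* on the same strand.

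*Col1a1* and *Col1a2*, the chains of type I collagen, had like profiles over the libraries. *Col1a1* had 9803, 6902 and 17433 normalized counts in wild type 1 to 3, then 3593 and 6300.5 in 4 and 5, and 6158, 2787 and 5966 in the *Mgp*-KO-labelled libraries 1 to 3, then 7493 and 3191. *Col1a2* had 7139, 5084, 11471, 3163 and 6058 in wild type 1 to 5, against 4600.5, 2091, 4049, 5855 and 2946 in the *Mgp*-KO-labelled libraries 1 to 5. In both genes the first set did not overlap and the second set did, with labelled *Mgp*-KO 4 above wild type 4. Within replicates 1 to 3 the mean of the *Mgp*-KO-labelled libraries was 0.437 of wild type for *Col1a1* and 0.453 for *Col1a2*, and both fell in DESeq2 there (log2 difference -1.21 with SE 0.36, adjusted p = 0.0130, and -1.15 with SE 0.34, adjusted p = 0.0106). The call of *Col1a1* was lost without wild type 1 or 3 and without labelled *Mgp*-KO 1 or 2, with estimates from -1.38 to -0.76, and that of *Col1a2* without wild type 1 or 3 and without labelled *Mgp*-KO 2. Within replicates 4 and 5 the ratios were 1.08 and 0.954. Per length, *Col1a1* stood at 0.938 to 1.37 times *Col1a2* in all 10 libraries, with 1.20 to 1.37 in replicates 1 to 3 and 0.938 to 1.15 in replicates 4 and 5, and the genotypes overlapped.

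The type V chains, which set the diameter of type I fibres, showed the same direction in the first set. *Col5a1* had 1668, 1504 and 2597 normalized counts in wild type 1 to 3, against 988, 352 and 941 in the *Mgp*-KO-labelled libraries 1 to 3. In the second set it had 639 and 1009 in wild type, with 806 and 440 in those labelled 4 and 5. Its log2 difference within replicates 1 to 3 was -1.35 in DESeq2 (SE 0.35, adjusted p = 0.00346) and -1.44 in limma (adjusted p = 0.101). *Col5a2* and *Col5a3* differed by -0.89 and -1.08 in DESeq2 within replicates 1 to 3 (adjusted p = 0.0347 and 0.00583). The call of *Col5a2* was lost without any of wild type 1 to 3 or labelled *Mgp*-KO 3, that of *Col5a3* without wild type 2 or 3, and that of *Col5a1* without wild type 3. Within replicates 4 and 5 the limma estimates of the type V chains were -0.43, -0.39 and 0.031 for *Col5a1*, *Col5a2* and *Col5a3*, and for *Col5a3* the library labelled *Mgp*-KO 4 was the highest of all 10 at 1737. The values of these 3 genes are given because of their calls, outside the rule for named genes.

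Over all libraries *Col27a1* had an estimate above 0, unlike the type I, III and V genes. It had 735, 682, 590, 761 and 787 normalized counts in wild type 1 to 5, against 740.1, 981, 907, 1599 and 970 in the *Mgp*-KO-labelled libraries 1 to 5. Only labelled *Mgp*-KO 1 lay within the wild-type range, and labelled *Mgp*-KO 4 stood far above the others. The log2 difference was 0.50 in limma (SE 0.21, adjusted p = 0.423) and 0.52 in DESeq2 with the set term (SE 0.18, adjusted p = 0.0495). Beside it, 3 cartilage genes, *Acan*, *Comp* and *Sox9*, were higher in all 5 *Mgp*-KO-labelled libraries than in all 5 of wild type, of 5 tested cartilage and bone markers, against 1.39% of all genes, and *Acan* passed in limma with the set term (adjusted p = 0.0434). Of the 5, 1 went the other way, at -0.69 over all libraries. It lay lower without overlap in replicates 1 to 3, against 15.1% of all genes. The sum over the 11 listed markers overlapped, at 214 to 454 in wild type against 253 to 523 in the *Mgp*-KO-labelled libraries. The defining cartilage chain *Col2a1* was at or near 0, and the part of cartilage in the level of *Col27a1* was not tested. *Col11a2* overlapped widely, with a log2 difference of 0.16 (95% interval -0.59 to 0.90 in limma).

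**Figure D3:**
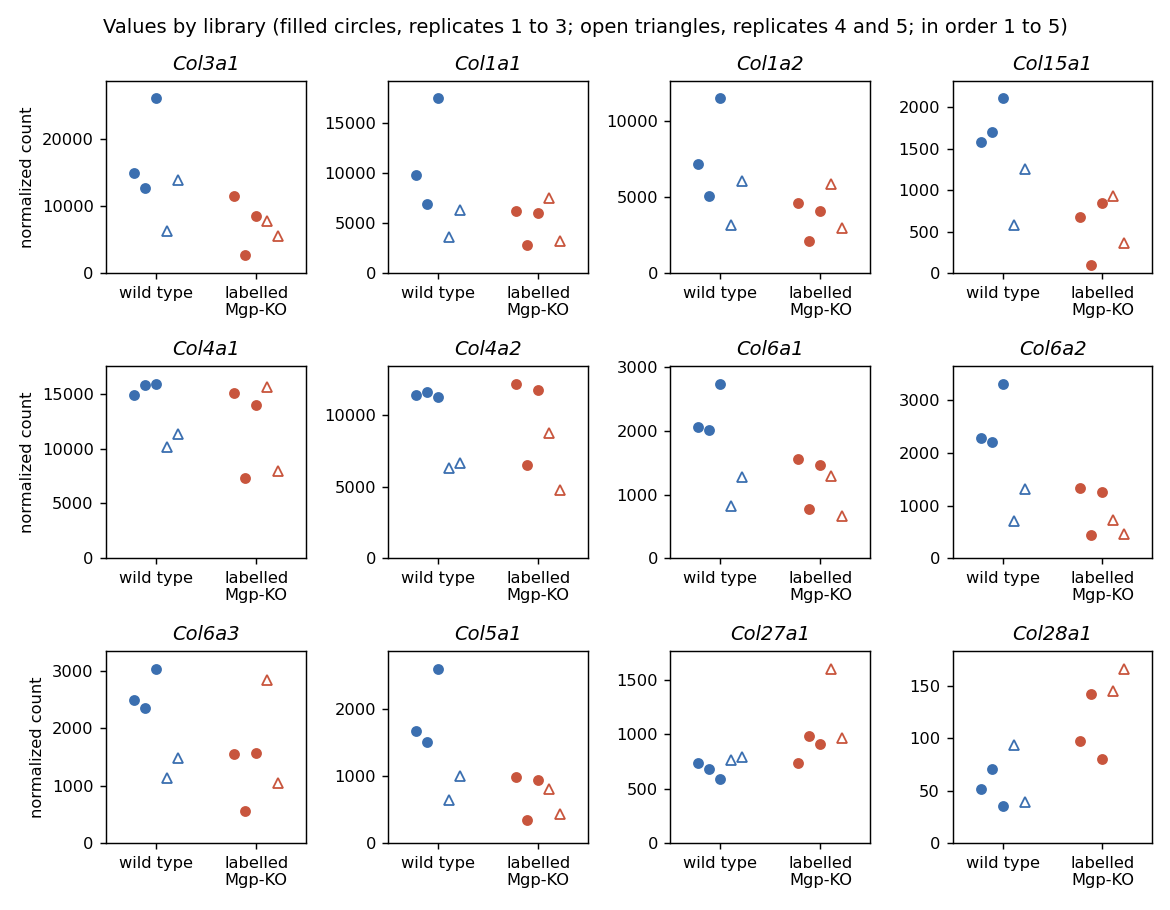
Normalized counts of 12 collagen genes in each library, wild type in blue and libraries labelled *Mgp*-KO in red, with replicates 1 to 3 as filled circles and 4 and 5 as open triangles, all on linear axes from 0. In *Col3a1*, *Col1a1*, *Col1a2*, *Col5a1*, *Col15a1* and the type VI genes the red circles lie under the blue circles while the triangles overlap, and in *Col4a1* and *Col4a2* the circles overlap.

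Among the basement-membrane collagens, the main type IV chains showed no difference past the spread of the libraries. *Col4a1* had 14915, 15786, 15912, 10174 and 11321 normalized counts in wild type 1 to 5, against 15082, 7270, 13979, 15561 and 7911 in the *Mgp*-KO-labelled libraries 1 to 5. *Col4a2* had 11427, 11584, 11222, 6270.5 and 6667 in wild type, against 12189, 6528, 11724, 8748 and 4768 in those labelled *Mgp*-KO. In both genes labelled *Mgp*-KO 2 and 5 lay under every wild-type library of their set, and labelled *Mgp*-KO 4 lay above both wild-type libraries of its set. The log2 differences were -0.24 (95% interval -0.85 to 0.37) and -0.13 (95% interval -0.81 to 0.54) in limma, with adjusted p = 0.821 and 0.919. *Col4a2* was at 0.064 without labelled *Mgp*-KO 5.

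*Col15a1*, whose product links basement membranes to the fibres around them, had the most negative estimate of the 29 genes. It had 1578, 1709 and 2108 normalized counts in wild type 1 to 3, then 576 and 1253 in 4 and 5. In the *Mgp*-KO-labelled libraries it had 674, 93.3 and 844 in replicates 1 to 3 and 931 and 365 in replicates 4 and 5. Only wild type 4 lay within the range of the *Mgp*-KO-labelled libraries, and labelled *Mgp*-KO 2 stood far under all others. The log2 difference was -1.56 (SE 0.58, adjusted p = 0.355 in limma) over all libraries and -2.24 (SE 0.75, adjusted p = 0.142) within replicates 1 to 3. In DESeq2 within replicates 1 to 3 the estimate was -1.75 (adjusted p = 0.184) and, without labelled *Mgp*-KO 2, -1.25, which passed.

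*Col18a1*, the source of endostatin, differed by 0.0081 between the genotypes (95% interval -0.80 to 0.81 in limma, and -0.36 to 0.38 with the set term). The minor type IV chains *Col4a3*, *Col4a4* and *Col4a5* had differences of -0.026, 0.25 and -0.25, and *Col4a3* shares 563 bases of exon with a gene on the opposite strand. Summed over the class, the basement-membrane collagens had 28734 to 30165 normalized counts in wild type 1 to 3, against 28831, 14457 and 27414 in the *Mgp*-KO-labelled libraries 1 to 3. The fibrillar sum was 29552 to 61452 and 25884, 9930.0 and 22139 in the same libraries. The basement-membrane sum of labelled *Mgp*-KO 1 lay within the wild-type range, whereas the fibrillar sum lay under all 3 wild-type libraries in every *Mgp*-KO-labelled library of the set. In replicates 4 and 5 both overlapped, with fibrillar sums of 15871 and 30532 against 26522 and 14099 and basement-membrane sums of 17418 and 19727 against 25785 and 13414. The difference between the classes was not tested.

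The type VI genes led the class of other collagens. *Col6a1* had 2066, 2019, 2746, 828 and 1282 normalized counts in wild type 1 to 5, against 1558, 769, 1474, 1287 and 665 in the *Mgp*-KO-labelled libraries 1 to 5. *Col6a2* had 2286, 2208, 3317, 704 and 1317 in wild type, against 1342, 437, 1261, 720.4 and 470.1 in those labelled *Mgp*-KO. *Col6a3* had 2503, 2355, 3039, 1146 and 1483 in wild type, against 1562, 555, 1581, 2847 and 1054 in those labelled *Mgp*-KO. All 3 genes parted the genotypes within replicates 1 to 3, and *Col6a3* was high in labelled *Mgp*-KO 4 where *Col6a2* was not. In DESeq2 the differences within replicates 1 to 3 were -0.85, -1.37 and -1.10 for *Col6a1*, *Col6a2* and *Col6a3* (adjusted p = 0.0235, 0.00309 and 0.0157). The calls of *Col6a1* and *Col6a3* were lost without any of wild type 1 to 3, and that of *Col6a2* without wild type 3.

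*Col6a2* kept its direction in both sets, at -1.50 inside the first and -0.73 inside the second in limma. With the set term it fell in DESeq2 (log2 difference -1.12, SE 0.32, adjusted p = 0.0125) and did not pass in limma (-1.19, adjusted p = 0.0860). The call in DESeq2 was lost without wild type 3 and without wild type 5. The ratio of *Col6a1* to *Col6a2* per length was 1.21 to 1.72 in wild type, against 1.70 to 2.62 in the *Mgp*-KO-labelled libraries, ranges that overlap at their ends. The chains are thought to assemble in equal parts, and these ratios describe transcripts only.

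*Col28a1*, a minor collagen known from peripheral nerve, was higher in most libraries labelled *Mgp*-KO. It had 51.5, 71.1, 35.3, 93.8 and 39.8 normalized counts in wild type 1 to 5, against 98.0, 142, 80.5, 146 and 167 in the *Mgp*-KO-labelled libraries 1 to 5. Within each set the genotypes did not overlap, and over all libraries wild type 4 lay above labelled *Mgp*-KO 3. The log2 difference was 1.15 (SE 0.31, adjusted p = 0.200 in limma, 0.0581 with the set term). Inside the first set it was 1.02 and inside the second 1.33. In DESeq2 it passed with default parameters (1.12, adjusted p = 0.0394) and with the set term (adjusted p = 0.00627), and the call with the set term held without any 1 library. Its call within replicates 1 to 3 was lost without wild type 1 or 3 and without labelled *Mgp*-KO 1 or 2, with estimates of 0.75 to 1.08. Its values were known when it was chosen.

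The summed level of 9 Schwann cell markers was 3065 to 4400 in wild type 1 to 3, against 1677 to 2017 in the *Mgp*-KO-labelled libraries 1 to 3, and 6 of the 8 tested markers lay lower there without overlap, against 15.1% of all genes. In replicates 4 and 5 the sum was 3431 to 3830 in wild type, against 4066 to 4189 in the *Mgp*-KO-labelled libraries. Their part in the level of *Col28a1* was not tested.

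The remaining 10 genes of the class, such as the fibril-associated *Col12a1*, *Col14a1*, *Col16a1* and *Col20a1*, the transmembrane *Col13a1* and *Col23a1*, and *Col7a1*, the anchoring fibril collagen of skin, had log2 differences between -0.56 and 0.039 in limma, and none passed in limma or DESeq2. *Col23a1* was 121 to 131 in wild type 1 to 3, against 78.8 to 98.5 in the *Mgp*-KO-labelled libraries 1 to 3, without overlap, and 57.1 and 63.0 against 56.7 and 85.6 in replicates 4 and 5, where it overlapped.

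Within replicates 4 and 5 alone, with 2 libraries a group, 0 of 29 collagens passed in limma and 0 in DESeq2, where 0.455% of all genes passed. Over all listed genes, not only the 12742 that it adjusted, 1134 had an unadjusted p under 0.05 in DESeq2, and 0 of them were collagens. *Col28a1* alone had an unadjusted p under 0.05 in limma, against 6.23% of all genes. *Col27a1* and *Col28a1* were the genes in which both libraries labelled *Mgp*-KO lay above both of wild type, against 20.3% of all genes, and 0 of the 29 tested collagens lay below, against 21.3%. The median log2 difference of the 29 genes was 0.040, against -0.48 within replicates 1 to 3.

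Whether the genotype difference itself changed between the sets was tested with an interaction term. It passed for 0 of 29 collagens in limma (0.00729% of all genes) and for 0 in DESeq2 (0.392% of all genes). *Col6a3* was the gene with an unadjusted p under 0.05 in limma, against 10.3% of all genes. In DESeq2 3 collagens had an unadjusted p under 0.05, where 1778 of all listed genes did. For *Col6a3* the difference of the differences was 1.64 (adjusted p = 0.470 in limma). Without labelled *Mgp*-KO 5, which leaves labelled *Mgp*-KO 4 as the lone library of its kind, *Col5a3* and *Col6a3* passed in limma, 2 of 29 against 11.8% of all genes. The more negative estimates of the first set were thus not shown to differ from those of the second.

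The replicate sets were also compared with each other. With genotype in the model, 10 of 29 collagens passed in limma between replicates 4 and 5 and replicates 1 to 3, against 38.2% of all tested genes. *Col18a1*, *Col12a1*, *Col6a2*, *Col6a1*, *Col4a2*, *Col23a1* and *Col4a5* were lower in replicates 4 and 5, by -1.12 for *Col18a1* (SE 0.17, adjusted p = 6.77e-04) to -0.62 for *Col4a5* on the log2 scale. *Col7a1*, *Col9a3* and *Col8a1* were higher there, by 1.67, 1.61 and 0.89. *Col18a1* had 404 to 509 normalized counts in wild type 1 to 3, 336 to 526 in the *Mgp*-KO-labelled libraries 1 to 3, and 174 to 259 in all 4 libraries of replicates 4 and 5. The ratio of *Col4a1* to *Col4a2* per length was 1.58 to 1.73 in replicates 4 and 5 and lower in every library of replicates 1 to 3, down to 1.09. Depth and the share of mitochondrial ribosomal RNA move with the sets, and their part in these values was not tested.

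**Figure D4:**
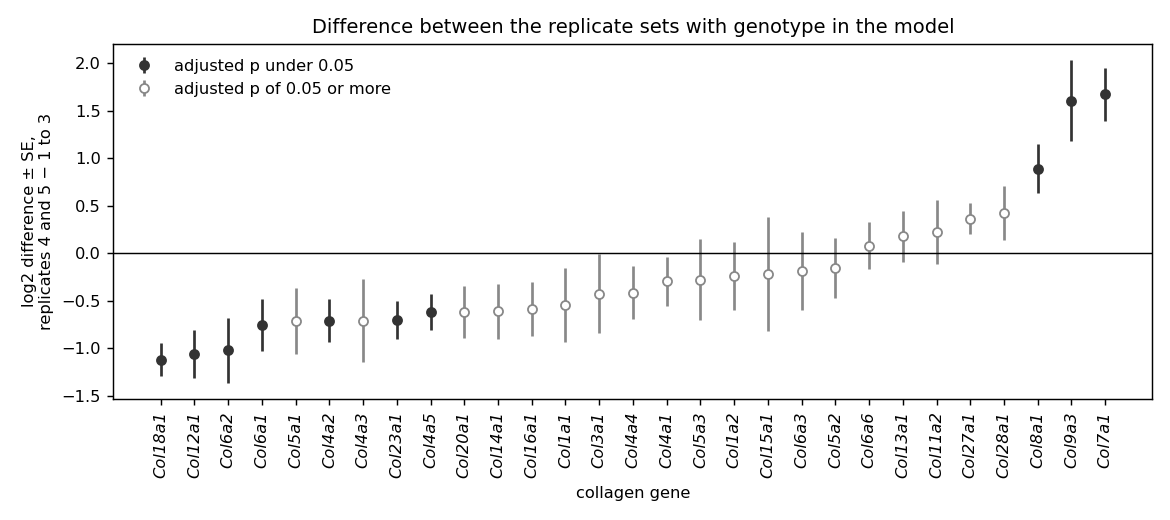
Log2 difference between replicates 4 and 5 and replicates 1 to 3 for each of 29 collagen genes, with genotype in the model (limma estimate, line is the standard error). Filled points passed an adjusted p of 0.05: 7 genes lie under 0 and 3 above it.

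Other tissue in the dissected fat was measured through marker lists. Muscle stood out, with a sum over 10 skeletal muscle markers of 32796 in labelled *Mgp*-KO 2 and 36253 in labelled *Mgp*-KO 5, between 1303 and 6068 in wild type 3, 4 and 5, and at most 333 in the other 5 libraries. Labelled *Mgp*-KO 2 was also the lowest library in 21 of the 29 collagens and labelled *Mgp*-KO 5 in 5, each measured against the wild-type mean of its own set. Without labelled *Mgp*-KO 2 the first set had no overlap in 16 collagens that lay lower, against 18.9% of all genes, a count that fewer libraries make easier to reach. DESeq2 called 7 collagens lower there, against 4.14% of all genes, *Col5a1*, *Col5a2*, *Col5a3*, *Col6a1*, *Col6a2*, *Col6a3* and *Col15a1*. The differences were smaller without it, -0.92 for *Col1a1*, -0.84 for *Col3a1* and -1.01 for *Col6a2* against -1.21, -1.24 and -1.37 with it. The part of muscle in the collagen values was not tested otherwise.

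**Figure D5:**
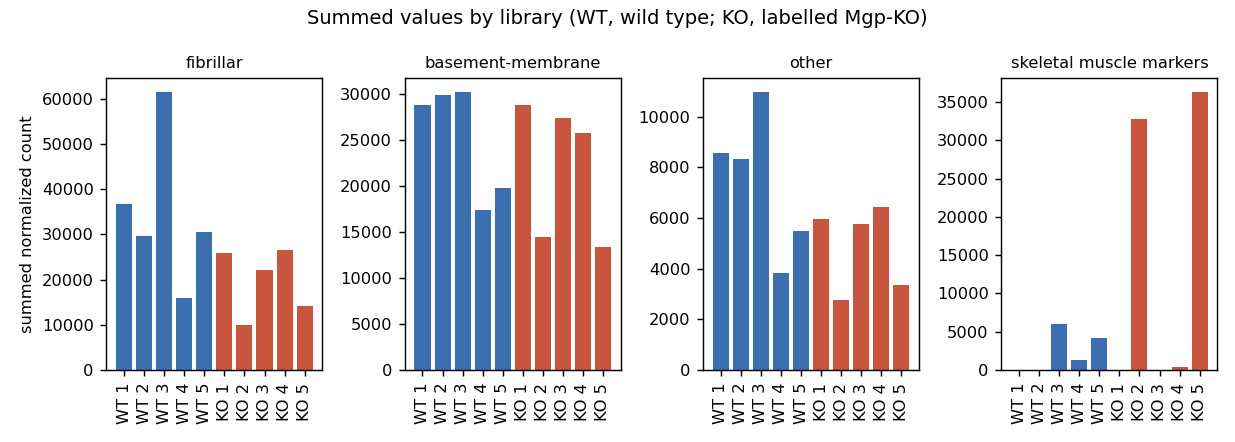
Summed normalized counts of the 3 classes of collagen genes and of 10 skeletal muscle markers in each library, as bars from 0 (WT, wild type; KO, libraries labelled *Mgp*-KO). The fibrillar sum is highest in wild type 3 at 61452 and lowest in labelled *Mgp*-KO 2 at 9930.0, and the muscle sum is highest in labelled *Mgp*-KO 2 and 5.

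Markers of fibroblasts and progenitors, the main source of fibrillar collagen, did not part the genotypes as a sum, and in bulk tissue fewer cells of a type cannot be told apart from less RNA per cell. All 18 markers were tested, and their sum was 17024 to 25785 in wild type, against 17149 to 25038 in the *Mgp*-KO-labelled libraries. Within replicates 1 to 3, 14 of 18 had a negative difference and DESeq2 called 3 lower, against 4.6% of all genes, and 0 higher, against 5.02%. There 5 of 18 lay lower without overlap, against 15.1% of all genes, and 1 higher, against 15.5%, with *Dpt*, *Lum* and *Thy1* among the lower and *Dcn* the higher. The 12 endothelial markers had a sum of 21542 to 35983 in wild type, against 25346 to 66706 in the *Mgp*-KO-labelled libraries, highest in labelled *Mgp*-KO 4. Of these 12, 11 had a positive difference over all libraries (median 0.42). None passed in limma without or with the set term, against 0.0656% and 2.36% of all genes. In replicates 1 to 3, 5 lay higher without overlap, against 15.5% of all genes, and 4 had a negative difference. In replicates 4 and 5 all 12 were positive (median 0.88). The 11 brown adipocyte markers summed to 217134 to 234005 in wild type 1 to 3, against 151996 to 191029 in the *Mgp*-KO-labelled libraries of that set. In replicates 4 and 5 the sums were 417484 and 418231, against 213491 and 308677. Of the 11, 10 had a negative difference and 3 fell in limma with the set term, *Ucp1*, *Dio2* and *Elovl3*, against 2.36% of all genes called. *Ucp1*, which defines the cell type, was at 2201 or more in every library. The part of these cell types in the collagen values was not tested.

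The genes that process collagen were taken from lists of enzymes, receptors and partners. Over all tested genes 0.0656% passed in limma over all libraries, 2.36% with the set term and 3.54% within replicates 1 to 3, so that in lists of 7 to 20 genes a count of 0 or 1 is near these shares. Of 20 tested genes of procollagen modification and folding, 0 passed in limma over all libraries or with the set term, and within replicates 1 to 3 *P4ha1*, a prolyl hydroxylase subunit, fell and *Tmem38b*, an ion channel of the endoplasmic reticulum, rose. *Serpinh1*, the collagen chaperone HSP47, had 4160, 4509 and 4615 normalized counts in wild type 1 to 3, against 1828, 707 and 2259 in the *Mgp*-KO-labelled libraries 1 to 3, without overlap. In the second set wild type had 3722 and 5444, with 4651 and 4940 in those labelled 4 and 5. Its log2 difference was -0.94 (adjusted p = 0.505 in limma), with -1.63 within replicates 1 to 3 (adjusted p = 0.0686 in limma, 4.45e-04 in DESeq2) and 0.091 within replicates 4 and 5. *P3h4*, a cofactor of collagen hydroxylation, differed by 0.42 (adjusted p = 0.596).

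Of 10 tested genes of propeptide cleavage and cross-linking, 1 passed with the set term in limma, against 2.36% of all genes, and 0 without it, against 0.0656%. Within replicates 1 to 3, 5 of the 10 lay lower without overlap (*Pcolce*, *Bmp1*, *Adamts14*, *Loxl1* and *Loxl2*), against 15.1% of all genes, and 2 higher (*Pcolce2* and *Lox*), against 15.5%. *Pcolce2*, an enhancer of procollagen cleavage that is named here after its values were seen, was higher in all 5 *Mgp*-KO-labelled libraries (90.3 to 136) than in all 5 of wild type (53.6 to 89.7), at a log2 difference of 0.63 (adjusted p = 0.306 in limma, 0.122 with the set term), and 1.39% of all genes lay higher without overlap in the same way. *Loxl1*, a lysyl oxidase best known for elastic fibres, had 388, 427, 525, 229 and 635 normalized counts in wild type 1 to 5, against 254, 125, 261, 136 and 101 in the *Mgp*-KO-labelled libraries 1 to 5. It fell by 1.35 on the log2 scale with the set term (SE 0.30, adjusted p = 0.0418 in limma). Its estimates inside the sets were -1.12 and -1.69, and neither passed in limma there. Of 10 tested genes of collagen breakdown and its inhibitors 1 passed with the set term, against 2.36% of all genes, namely *Timp4*, an inhibitor of matrix metalloproteinases. It had 665, 573, 661, 2672 and 860 in wild type 1 to 5, against 1697, 1953, 1384, 3948 and 4327 in the *Mgp*-KO-labelled libraries 1 to 5. *Timp4* rose by 1.42 with the set term (SE 0.25, adjusted p = 0.0186 in limma).

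Of 7 tested collagen receptors 0 passed in limma without or with the set term, against 0.0656% and 2.36% of all genes. *Ddr1*, a receptor tyrosine kinase for collagen, differed by -0.75 (SE 0.46, adjusted p = 0.608) and *Itga11*, an integrin chain, by -0.70 (SE 0.42, adjusted p = 0.599). Of 11 tested partners of the basement membrane, among them the laminins, nidogens and perlecan, 0 passed in the same fits, with a median log2 difference of 0.037. The largest estimates in that list were 0.48 for *Agrn*, agrin (SE 0.25, adjusted p = 0.545), and 0.40 for *Lama5*, a laminin chain (SE 0.26, adjusted p = 0.639).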

How the data were processed

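RNA from iBAT of 10 mice was sequenced by the authors with single reads of 50 bases. As their methods state, they mapped the reads to mm10 with STAR, counted them on genes and divided each library by its DESeq2 size factor. What was deposited is thus a size-factor-scaled signal for each gene (normalized counts). The annotation release and strand setting are not given in the sources used here. All values (100%) were whole multiples of 1 read within 0.01 reads, and these whole reads were recovered. The members and gene lists were chosen with earlier results of these data known.

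Genes with a mean of at least 10 normalized counts were tested with limma 3.58.1 in R 4.3.3, on log2(normalized count + 1), letting the variance follow the mean. This scale understates the change of low genes. Adjustment followed Benjamini-Hochberg over all 13714 tested genes. Alternatives in limma, edgeR 4.0.16 (quasi-likelihood test, TMM) and DESeq2 1.42.0 on the whole reads included a term for the replicate set, a block on the replicate number, each set alone and each library left out. DESeq2 was run on all listed genes and adjusted over those it tested. The fits within a set in DESeq2 were added after the data were seen. The fit without covariates was tested on simulated data for each tool. Those data held 200 changed genes and no difference between the replicate sets, so they cannot show how that fit behaves with such a difference. Collagens were named in full if they passed in limma, if their groups did not overlap, or if they were among the 3 highest per length of a class, and *Col5a1*, *Col5a2*, *Col5a3*, *Col27a1*, *Col28a1* and others named with values were added after their values were seen. In each list of processing genes those past the threshold without or with the set term were named, or the 2 with the largest change. *Tmem38b*, *P4ha1*, *Dpt*, *Lum*, *Thy1* and *Dcn* were added in the same way. Exon lengths and coordinates come from the GENCODE vM21 annotation of GRCm38 (mm10), and promoter windows from RefSeq, which matched 35 of 44 collagen symbols. Libraries held 9253793 to 22252260 reads, and floors cover counting error only. The labels do not say which mice share a litter or batch, so p-values measure the spread between these samples.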

Additional observations from a re-analysis of the deposited data

Results flagged for a closer look

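In groups of 5 libraries the highest or lowest value was compared with the next by Dixon's criterion, whose critical value is 0.71, and chance alone passes about 1 group in 20. Of 58 groups, 3 passed, all of them high in the library labelled *Mgp*-KO 4. *Col27a1* had a normalized count of 1599 there, and the next library labelled *Mgp*-KO had 981. *Col7a1* had 217, and the next had 82.1. *Col9a3* had 34.0, and the next had 10.6. That library had the fewest reads, 9253793, and the largest share of mitochondrial ribosomal RNA, 16.7%. The part of depth and of RNA quality in these values was not tested.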

How the results depend on the processing

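The number of all genes past the threshold in limma, 9, came to 29 with a pseudocount of 10, 1 without a filter on low values, 15 with a mean of at least 50, 34 with quantile normalization, 324 with the set term, 270 with the replicate block, 486 within replicates 1 to 3 and 0 within replicates 4 and 5. It was 3, 341 and 222 in edgeR without a term, with the set term and with the replicate block, 386 and 1135 in DESeq2 without and with the set term, and between 0 and 93 with each library left out.

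The count of collagens, 0 in limma, stayed at 0 under every pseudocount, filter and scaling run, in each set alone, in edgeR and with any library left out of limma. It was 1 in limma with the replicate block (*Col28a1*, adjusted p = 0.0468), 1 in DESeq2, 3 in DESeq2 with the set term, 4 in DESeq2 with the replicate block (3 lower, *Col3a1*, *Col5a1* and *Col6a2*, where 913 of 14579 genes passed) and 9 in DESeq2 within replicates 1 to 3. Leaving out each library gave between 0 and 8 in that last fit (7 without labelled *Mgp*-KO 1 or 2) and between 1 and 10 in DESeq2 with the set term (6 without wild type 4), and 10 was reached without labelled *Mgp*-KO 4, where 1485 of 15852 genes passed. *Mgp* reads go against the labels of *Mgp*-KO 4 and 5, and without the latter the count was 3. The count without overlap, 0 (480 of all 13714 tested genes), was 16 within replicates 1 to 3, where 4193 of all genes did not overlap. It was between 17 and 19 when that set lost a library (18 without wild type 1), where 5004 to 5837 of all genes did not overlap. It was 2 within replicates 4 and 5, where 5711 did not. With each library left out of all 10 it lay between 0 and 5, the latter without wild type 4, where 934 of all genes did not overlap. The 10 genes that differed between the sets, where 5243 of all 13714 genes passed, came to between 5 and 13 with each library left out. The count was 5 without wild type 4, where 4518 of all genes passed, and 13 without labelled *Mgp*-KO 4, where 5389 did. Collagens whose genotype difference changed between the sets came to between 0 and 2. The causes were not tested beyond the smaller numbers of samples.

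Directions of the named genes turned within replicates 4 and 5, where *Col4a1* was at 0.048 in limma and 0.11 in DESeq2, *Col1a1* at 0.040 and 0.087, *Col6a3* at 0.41 and 0.54, *Col5a3* at 0.031 and 0.39, and *Col4a2* at 0.042 in DESeq2. With each library left out *Col4a2* lay between -0.27 and 0.064, the latter without labelled *Mgp*-KO 5. No scaling turned any of the 14 collagens followed through the alternatives, and none moved the median of all genes by over 0.1. Genes near 0 can turn, as *Col4a3* did, at 0.020 in edgeR against -0.026 in limma. The methods speak of 5 pairs of mice and the labels number the replicates 1 to 5 in both groups, but no source ties a number to a pair. Same-numbered libraries correlated between 0.0559 and 0.527 in their deviations from the group means, with a mean of 0.390 (-0.022 with the set removed) and 2 of 5 matching their own number best, so they were not taken as pairs. Depth limits the 15 collagens under the filter, and none of them passed for genotype in limma without a filter or in DESeq2.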
